A study of Drosophila melanogaster with 4 samples.

Results

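The Delta class glutathione S-transferases of the fruit fly *Drosophila melanogaster* were followed in dissected female intestines of a kdm5 mutant and of the strain w1118. Members were the transcripts in the deposited table that belong to genes whose symbol begins with GstD. There were 6 such transcripts of 5 genes (GstD1, GstD2, GstD3, GstD5 and GstD9) among 1761 listed transcripts of 1526 matched genes. The annotation used here, Ensembl release 115 of BDGP6.54, holds 11 GstD genes with 15 transcripts. GstD4, GstD6, GstD7, GstD8, GstD10 and GstD11 had no listed transcript, and of the GstD9 transcripts only GstD9-RA was listed.

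Flies of both groups were female, 3 to 5 days old and kept at 25 °C. The mutant group (2 samples) carried the kdm5 alleles k6801 and 10424, and the control group (2 samples) was w1118, a white-eyed laboratory strain. Each sample was total RNA from 30 pooled intestines. Kdm5 encodes an enzyme that takes methyl groups off lysine 4 of histone H3, a mark of active promoters, and the study set out to find genes expressed differently in mutant and wild-type intestines. Apart from their kdm5 alleles the strains may differ in genetic background, and an effect of kdm5 and an effect of background cannot be told apart with 1 strain per genotype. As the labels name no separate crosses or days for the samples of a genotype, the p-values reflect only how far these samples differed, and that spread may be technical.

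Glutathione S-transferases join the tripeptide glutathione to reactive or foreign compounds, which makes them more soluble and easier to export. The Delta and Epsilon classes are the large insect classes of this family, and both are known for the breakdown of insecticides and of products of lipid oxidation. In the fly gut the transcription factor CncC, the counterpart of mammalian Nrf2, is known to activate GstD1 when its inhibitor Keap1 is relieved, and a GstD reporter is a common readout of that pathway.

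Abundance was given in TPM, a transcript's share of all transcripts scaled to a fixed total, which is corrected for transcript length and therefore allows levels to be compared between genes. The depth behind each value is unknown, since TPM does not retain it. Every p in the authors' deposited table was below 0.05, so a Delta class gene could enter the list only by differing between the genotypes. With a total of 1000000 TPM assumed in each library, the listed transcripts held 15.3% to 15.6% of it in the mutant and 23.5% to 23.9% in w1118. Differences were tested with limma on log2(TPM + 1), fitted to the listed transcripts alone. Their selection on this same contrast favours transcripts with little spread within a genotype, and limma shares that spread between transcripts. The limma p-values may therefore be too small, and calls are a description of the list. An annotation-wide adjusted p is adjusted by the Benjamini-Hochberg method as if all 35694 annotated transcripts outside transposable elements had been tested, and "rose" and "fell" are used only where it is below 0.05. The listed Kdm5 transcript (FBtr0307071) stood at 0.0768 and 0.0361 TPM in the mutant and at 1.43 and 0.639 TPM in w1118 (limma annotation-wide adjusted p = 0.11). These levels are low, and a change of the Kdm5 gene as a whole is not shown by this transcript.

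All 6 listed Delta class transcripts were higher in both mutant libraries than in both w1118 libraries, as were 58.8% of all listed transcripts, while 35.9% had both mutant values below both w1118 values. Their summed abundance was 2099 and 1612 TPM in the mutant and 364 and 458 TPM in w1118, so the mutant mean was 4.51 times that of w1118 (3.92 to 5.1 times with any 1 library left out). GstD1, the most abundant member, made up most of that sum in every library, and the 4 other genes together differed by a larger factor than it did. The sum without GstD1 was 389 and 270 TPM in the mutant and 38.4 and 37.4 TPM in w1118, an 8.7-fold difference (7.13- to 10.3-fold with 1 library left out). For both sums the exact two-sided permutation test over libraries gave p = 0.333, the smallest that 2 against 2 libraries allow. In bulk tissue, a change in the number of cells that express a gene and a change in RNA per cell cannot be told apart.

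GstD1 encodes the best-studied enzyme of the class, known for its ability to break down the insecticide DDT. Its main transcript, GstD1-RA (FBtr0082607), stood at 1692 and 1319 TPM in the mutant and at 318 and 415 TPM in w1118. The lowest mutant value was 3.18 times the highest w1118 value, and this transcript had a higher mean level than 98.3% of all listed transcripts. The mutant mean was 1505 ± 263 TPM and the w1118 mean 367 ± 69 TPM (SD, n = 2), a 4.11-fold difference. On log2(TPM + 1) the change was 2.04 ± 0.25 (SE), with limma annotation-wide adjusted p = 6.3e-05. Leaving out mutant replicate 1 or mutant replicate 2 ended every annotation-wide call in the whole list, those of all transcripts named here included; the limma log2 change of GstD1-RA was then 1.86 or 2.22 (unadjusted p = 0.0044 or 0.0026).

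GstD9-RA (FBtr0082608) was the second most abundant member. Its abundance was 201 and 132 TPM in the mutant and 17.4 and 24.1 TPM in w1118. The groups were well separated, with the lowest mutant value 5.47 times the highest w1118 value, and the mutant libraries differed from each other 1.53-fold. GstD9-RA rose 8.02-fold (log2 change 2.93 ± 0.29, SE; limma annotation-wide adjusted p = 4.6e-06). GstD9-RB was not listed, so a change of the GstD9 gene as a whole is not shown. GstD2 (FBtr0082569), whose enzyme conjugates plant isothiocyanates, stood at 133 and 82.7 TPM in the mutant and at 16.3 and 7.99 TPM in w1118. GstD2 was the most variable of the 6 between the libraries of a genotype, with a 2.04-fold difference between the w1118 libraries and a 1.61-fold difference between the mutant libraries. It rose 8.87-fold (log2 change 3.08 ± 0.34, SE; limma annotation-wide adjusted p = 1.5e-05), or 13.5-fold without w1118 replicate 1.

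GstD5 and GstD3 were the least abundant members in w1118. GstD5 (FBtr0082572) stood at 32.5 and 36.0 TPM in the mutant and at 2.21 and 2.44 TPM in w1118. It had both the largest factor of the 6 and close agreement within each genotype, and the lowest mutant value was 13.4 times the highest w1118 value. GstD5 rose 14.8-fold, from 2.32 ± 0.159 to 34.3 ± 2.48 TPM (SD, n = 2; log2 change 3.41 ± 0.35, SE; limma annotation-wide adjusted p = 8.0e-06). GstD3 (FBtr0082570), which has the shortest coding length of the annotated GstD genes at 597 bases, stood at 22.6 and 19.4 TPM in the mutant and at 2.48 and 2.84 TPM in w1118. The GstD3 libraries were close within each genotype and did not overlap between them. GstD3 rose 7.9-fold (log2 change 2.59 ± 0.36, SE; limma annotation-wide adjusted p = 0.00027).

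**Figure D1:**
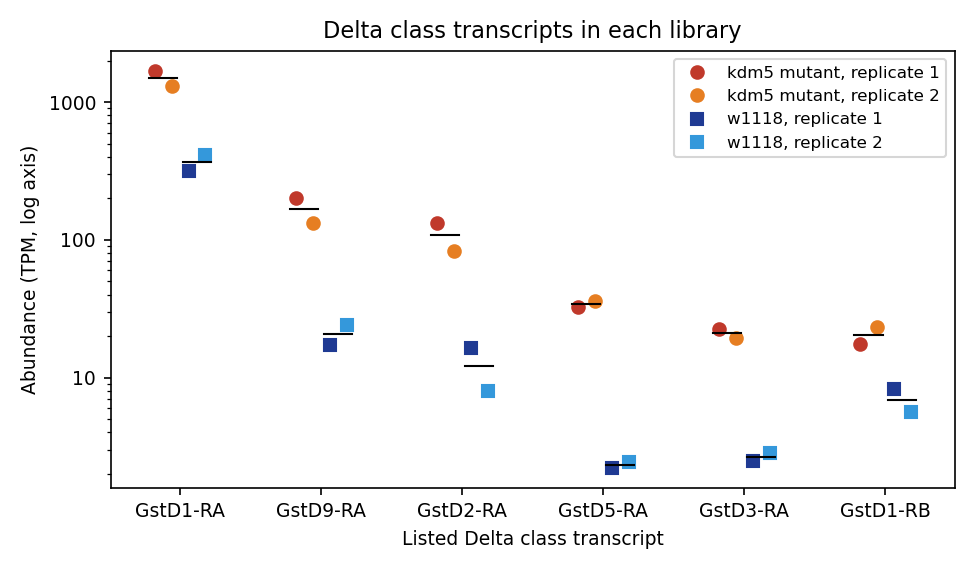
Abundance in TPM, on a log axis, of the 6 listed Delta class transcripts, with 1 point per library (circles mutant, squares w1118) and a black line at each group mean (n = 2). Each mutant point lies above both w1118 points, with GstD1-RA at 1319 to 1692 TPM in the mutant and GstD5-RA at 2.21 to 2.44 TPM in w1118.

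In w1118 the order of mean levels was GstD1-RA, GstD9-RA, GstD2-RA, GstD1-RB, GstD3-RA and GstD5-RA. The ranges of GstD1-RA and GstD9-RA did not overlap with that of any member below them. The w1118 values of GstD2-RA and GstD1-RB overlapped, and those of GstD3-RA and GstD5-RA came as close as 2.48 and 2.44 TPM. In the mutant the order was GstD1-RA, GstD9-RA, GstD2-RA, GstD5-RA, GstD3-RA and GstD1-RB. GstD9-RA and GstD2-RA overlapped there, since GstD2-RA in mutant replicate 1 (133 TPM) was above GstD9-RA in mutant replicate 2 (132 TPM), and GstD3-RA and GstD1-RB overlapped as well. GstD5-RA, lowest of the 6 in w1118, was above both GstD3-RA and GstD1-RB in both mutant libraries.

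A minor GstD1 transcript was also listed. GstD1-RB (FBtr0100410) stood at 17.7 and 23.2 TPM in the mutant and at 8.21 and 5.66 TPM in w1118. It shares its span and its coding sequence with GstD1-RA, and is 18 bases longer because its second exon begins 18 bases earlier, in the 5′ UTR. GstD1-RB made up 1.03% and 1.73% of the summed GstD1 abundance in the mutant and 2.52% and 1.34% in w1118. These shares overlapped between the genotypes, so no difference in the use of the transcripts could be seen. GstD1-RB was 2.95-fold higher on average and had the smallest change of the 6 (log2 change 1.44 ± 0.35, SE; limma annotation-wide adjusted p = 0.046). It passed the threshold narrowly, and was at 0.093 with TPM scaled to the abundance outside the list and at 0.058 without a mean-dependent prior variance. Without w1118 replicate 1 or 2 it was at 0.58 or 1, and with a replicate block at 0.19. As the RA and RB transcripts share nearly all their sequence, the division of reads between them is uncertain.

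The members were also compared with each other. Measured within each library as a percentage of GstD1-RA, which removes anything that scales all members alike, GstD5 was at 1.92% and 2.73% in the mutant and at 0.696% and 0.587% in w1118, a 3.59-fold shift of geometric means. GstD2 was at 7.86% and 6.27% against 5.14% and 1.92%, a 2.23-fold shift that was 3.65-fold without w1118 replicate 1 and 1.37-fold without w1118 replicate 2. GstD9 was at 11.9% and 9.996% against 5.47% and 5.81%, and GstD3 at 1.34% and 1.47% against 0.782% and 0.683%, shifts of 1.93- and 1.92-fold. For these 4 genes both mutant libraries lay above both w1118 libraries. GstD1-RB, at 1.05% and 1.76% against 2.58% and 1.36%, did not separate the genotypes. Among these 5 comparisons the exact two-sided permutation p was 0.333 for each of the 4 genes and 0.667 for GstD1-RB, and 0.417 and 0.667 after Benjamini-Hochberg adjustment. A p of 0.333 is the smallest that 2 against 2 libraries allow, so these shifts could not pass a threshold.

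**Figure D2:**
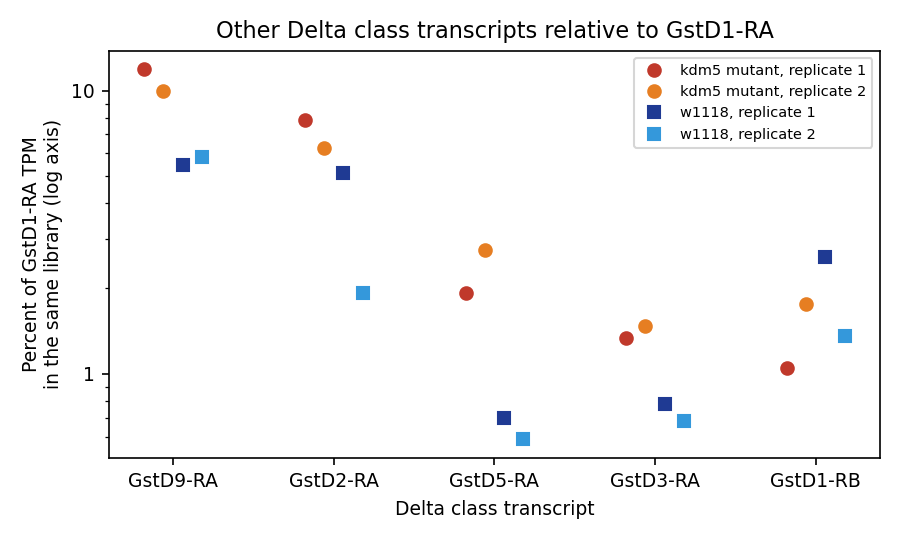
TPM of each other Delta class transcript as a percentage of GstD1-RA TPM in the same library, on a log axis, with 1 point per library. GstD9, GstD2, GstD5 and GstD3 are relatively more abundant in both mutant libraries, GstD5 most clearly at 1.92% and 2.73% against 0.696% and 0.587%, while GstD1-RB overlaps.

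The share in the sum of the listed Delta class transcripts moved accordingly. GstD1 accounted for 81.5% and 83.3% of it in the mutant and for 89.5% and 91.8% in w1118. GstD9-RA, the only listed GstD9 transcript, accounted for 9.59% and 8.18% in the mutant and for 4.77% and 5.26% in w1118. GstD5 accounted for 1.55% and 2.24% in the mutant and for 0.607% and 0.531% in w1118.

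The members were not tied to one mutant library. GstD1-RA, GstD9-RA, GstD2-RA and GstD3-RA were higher in mutant replicate 1, by 1.28-, 1.53-, 1.61- and 1.16-fold. GstD5-RA and GstD1-RB were higher in mutant replicate 2, where the ratio of replicate 1 to replicate 2 was 0.902 and 0.762. In every case the difference between the mutant libraries was smaller than the difference between the genotypes.

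The genes lie in one cluster on chromosome arm 3R (BDGP6.54), from 12364776 to 12385624, a stretch of 20849 bases. The 5 listed genes occupy 10410 bases at its left, from 12366163 to 12376572. GstD9 (12366163 to 12367564) and GstD1 (12367817 to 12369268) lie on the minus strand with 2 exons per transcript and a gap of 252 bases. GstD2 (12371971 to 12372704), GstD3 (12373068 to 12373813) and GstD5 (12375733 to 12376572) lie on the plus strand and have 1 exon each. GstD1 and GstD2 are transcribed away from each other across 2702 bases. Transcripts on both strands, with and without an intron, therefore were among those that rose.

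GstD4 (12374100 to 12374824) lies between GstD3 and GstD5 and had no listed transcript, and GstD10 at the left edge and GstD6, GstD7, GstD8 and GstD11 at the right were also not listed. Their levels are not known here, and absence from the list does not show that they did not differ. Genes of a tandem family are alike in sequence, so reads may have been divided between neighbours with error; how alike these are was not measured here. Of 10 other annotated genes within the cluster or 10 kb of it, 1 was listed. That gene, CG4115 (12360008 to 12363255, plus strand), stood at 6.6 and 5.66 TPM in the mutant and at 1.98 and 1.32 TPM in w1118 (log2 change 1.44 ± 0.37, SE; limma annotation-wide adjusted p = 0.06).

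**Figure D3:**
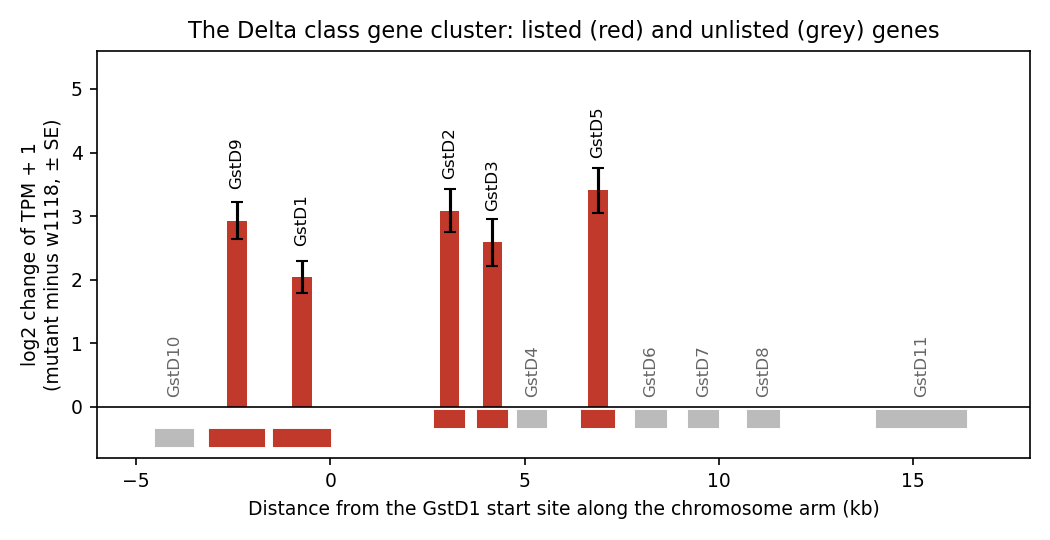
The GstD genes along the chromosome arm, as distance in kb from the GstD1 start site, with plus-strand genes drawn above minus-strand genes. Bars give the log2 change of the listed genes (GstD1 by GstD1-RA) with the SE of the limma fit (n = 2 per group), from 2.04 for GstD1 to 3.41 for GstD5; genes in grey had no listed transcript.

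Against the whole list, the Delta class changes lay in the upper part. With the annotation-wide adjustment all 6 listed members were called higher, where 22.0% of all listed transcripts were called higher and 8.69% lower. With adjustment over the listed transcripts alone all 6 were called higher, where 53.7% of the list was called higher and 23.4% lower. These counts describe members that entered the list by differing, and say nothing of the unlisted genes. The median log2 change was 2.76 over the 6 members and 0.86 over the list. GstD5 ranked 35 from the top by log2 change among the 1761, GstD2 ranked 44, GstD9 ranked 49, GstD3 ranked 71, GstD1-RA ranked 132 and GstD1-RB ranked 316. In the authors' deposited table the p of GstD5 was 0.000105, the 13th smallest, and that of GstD3 was 0.00164, ranked 196. Those of GstD2, GstD1-RB, GstD9 and GstD1-RA were 0.00568, 0.00653, 0.007 and 0.0177, ranked 527, 568, 592 and 1044 of 1761.

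**Figure D4:**
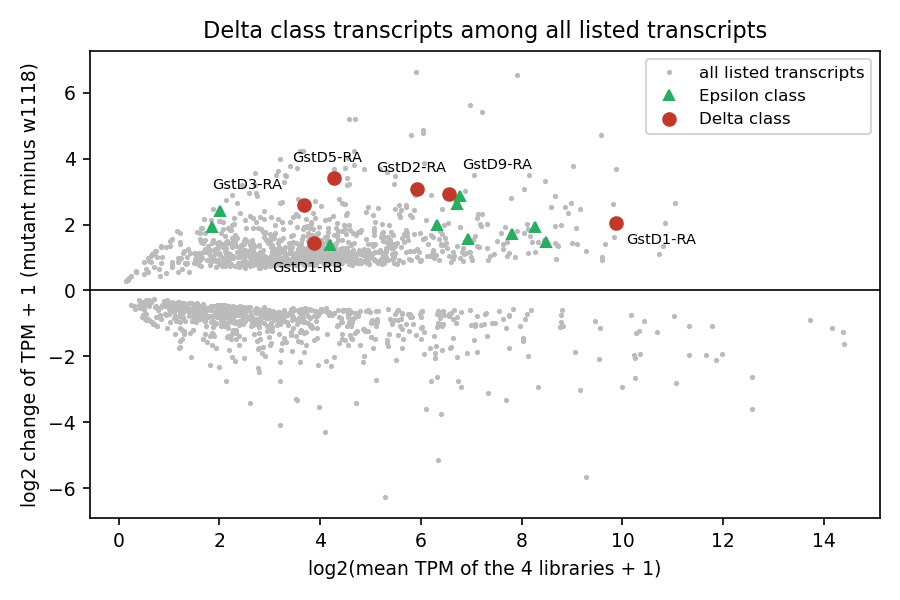
Each point is 1 of the 1761 listed transcripts, with log2(mean TPM of the 4 libraries + 1) on the horizontal axis and the log2 change of TPM + 1 on the vertical axis; red circles are Delta class and green triangles Epsilon class. Delta class transcripts run from 1.44 (GstD1-RB) to 3.41 (GstD5-RA) and GstD1-RA is among the most abundant transcripts that rose.

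The listed transcripts of other genes whose pattern over the 4 libraries was most like the Delta class mean were Mfe2 (FBtr0340442), CG31380, meep, RpLP1 (FBtr0331932) and CG12963. Likeness was the root mean square difference of centred log2(TPM + 1) values over 4 libraries, and ran from 0.074 for Mfe2 to 0.14 for CG12963. Among the members themselves it was 0.07 for GstD3 and 0.62 for GstD1-RB, so transcripts of other genes lay closer to the mean than most members did. Mfe2 encodes a multifunctional enzyme of peroxisomal fatty acid breakdown, and stood at 94.2 and 82.8 TPM in the mutant and at 15.4 and 12.6 TPM in w1118. Of these 5, all of which rose, CG31380 lost its call without w1118 replicate 1 or 2 (limma annotation-wide adjusted p = 0.14 and 0.12). RpLP1 encodes an acidic protein of the large ribosomal subunit. Only its transcript FBtr0331932 is meant here, at 14.6 and 16.1 TPM in the mutant and at 1.58 and 1.48 TPM in w1118. A change of the gene as a whole is not shown by it.

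Listed transcripts of other glutathione S-transferase classes also rose. Of 14 Epsilon class genes 9 were listed, with 10 transcripts, and all 10 rose, where 22.0% of the whole list rose. The change was 2.78- to 19.9-fold, with a median log2 change of 1.91. The largest ratios came from transcripts of very low w1118 level. A minor GstE8 transcript (FBtr0345798, 19.9-fold) was at 0.207 and 0.377 TPM in w1118, and a GstE10 transcript (9.19-fold) at 0.462 and 0.559 TPM. GstE8 (FBtr0086676) stood at 163 and 219 TPM in the mutant and at 23.5 and 26.4 TPM in w1118. GstE1 stood at 137 and 225 TPM against 31.9 and 24.4 TPM, and GstE9 at 568 and 408 TPM against 119 and 135 TPM. These 3 rose 7.66-, 6.43- and 3.84-fold (limma annotation-wide adjusted p = 2.4e-06, 1.5e-05 and 0.00012). Sums over each class covered its listed transcripts alone. The ratio of summed Delta to summed Epsilon abundance was 1.11 and 0.71 in the mutant libraries and 0.633 and 0.829 in the w1118 libraries. These ratios overlapped between the genotypes (exact two-sided permutation p = 0.667), so a larger rise of one class than of the other was not shown. Of 13 genes of further classes, 12 of them in the annotation, 2 had a listed transcript: GstS1 (Sigma) and GstO2 (Omega). The levels of the others are not known here. GstS1, an enzyme that conjugates products of lipid oxidation, rose from 23.6 ± 1.27 to 66.0 ± 4.69 TPM (SD, n = 2). The main GstO2 transcript (FBtr0076653) rose from 62.1 ± 9.36 to 254 ± 3.79 TPM, and a second (FBtr0076654) rose 3.11-fold. Without w1118 replicate 1 or 2, limma called 8 of the 10 Epsilon class transcripts in either case. Of the GstS1 and GstO2 transcripts it then called 2 and 1 of 3: the second GstO2 transcript was at an annotation-wide adjusted p of 0.079 and 0.12, and GstS1 at 0.088 without w1118 replicate 2.

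Enzymes that supply and recycle glutathione had 8 listed transcripts of 7 genes out of 10. Gss1 and Gss2, neighbouring glutathione synthase genes, had the same 4 values and count as 1 measurement, which leaves 7. Of these 6 were higher and 1 lower and 3 rose, where 22.0% of the whole list rose and 58.8% had both mutant values above both w1118 values. The median log2 change of the 7 was 1, and that of the list 0.86. Pgd, an NADPH-producing enzyme of the pentose phosphate pathway, stood at 272 and 289 TPM in the mutant and at 104 and 129 TPM in w1118, and rose 2.42-fold. Gclm, the modifier subunit of the ligase that starts glutathione synthesis, stood at 282 and 341 TPM against 176 and 135 TPM, and rose 2-fold. Transcripts of Gclc, the catalytic subunit of the same ligase, went both ways. FBtr0340139, the 1 that was lower, stood at 14.5 and 20.5 TPM against 49.2 and 35.8 TPM. The less abundant FBtr0340138 stood at 2.89 and 2.95 TPM against 1.16 and 0.939 TPM. Neither was called (limma annotation-wide adjusted p = 0.052 and 0.32). Trx2, a thioredoxin (flies lack glutathione reductase and recycle glutathione through thioredoxin), stood at 493 and 598 TPM against 279 and 275 TPM, and rose 1.97-fold. Gclm and Trx2 passed narrowly (limma annotation-wide adjusted p = 0.048 and 0.046), and Pgd was at 0.0057. Without w1118 replicate 1 or 2 the adjusted p of Gclm was 0.054 and 0.83 and that of Trx2 0.31 and 0.3, while that of Pgd was 0.11 without w1118 replicate 1. With TPM scaled to the abundance outside the list Gclm and Trx2 were both at 0.14, and with a minimum mean of 1 TPM at 0.055 and 0.0503. Without a mean-dependent prior variance none of these 3 passed (Pgd 0.086, Gclm 0.29 and Trx2 0.3).

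Of 3 CncC regulators 1 transcript was listed, that of the inhibitor Keap1 (FBtr0083424), at 0.698 and 2.04 TPM in the mutant and at 3.25 and 2.58 TPM in w1118 (limma annotation-wide adjusted p = 1). No cnc or maf-S transcript was listed. Of 12 genes for peroxide and superoxide defence, 1 had a listed transcript: Sod2-RB (FBtr0345492) of the mitochondrial superoxide dismutase gene Sod2. Sod2-RB rose 4.35-fold (limma annotation-wide adjusted p = 0.0051). Its level went from 3.74 and 5.44 TPM in w1118 to 18.1 and 21.9 TPM in the mutant. Whether the Sod2 gene as a whole changed is not shown by this transcript. UDP-glycosyltransferases, which attach sugars to foreign compounds, had 4 listed transcripts out of 35 genes, 2 higher and 2 lower, of which 1 rose: Ugt37C2, 3.79-fold (limma annotation-wide adjusted p = 0.04). Of 6 efflux pump genes, 3 transcripts were listed, all lower, and 1 fell: the ABC transporter Mdr50, from 36.4 and 27.4 TPM in w1118 to 7.55 and 14.3 TPM in the mutant (limma annotation-wide adjusted p = 0.029). Over the whole list 22.0% of transcripts rose and 8.69% fell. Both mutant values were above both w1118 values for 58.8% of it and below them for 35.9%. Without w1118 replicate 1 or 2 the adjusted p was 0.57 and 0.13 for Sod2, 1 and 1 for Ugt37C2, and 1 and 0.31 for Mdr50. Mdr50 was also at 0.075 without a mean-dependent prior variance, and Ugt37C2 at 0.071 with TPM scaled to the abundance outside the list and at 0.27 with a replicate block.

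**Figure D5:**
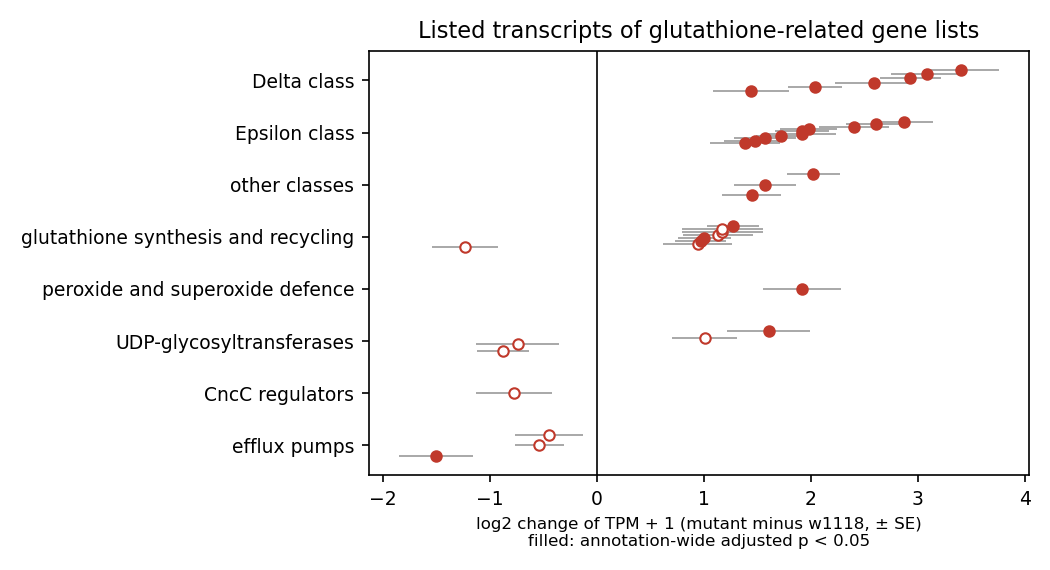
Log2 change of TPM + 1 (mutant minus w1118) with the SE of the limma fit for every listed transcript of the Delta class and of 7 related gene lists; filled points have an annotation-wide adjusted p below 0.05. Delta class points run from 1.44 to 3.41 and Epsilon class points from 1.38 to 2.87, while all 3 efflux pump transcripts lie below 0.

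Markers of other cell types were read in the same libraries, since Malpighian tubules and fat body also express these enzymes. Of 12 Malpighian tubule marker genes 6 were listed, with 9 transcripts, of which 3 were higher and 6 lower. Their summed abundance was 352 and 386 TPM in the mutant and 472 and 498 TPM in w1118. The members went both ways: Alp4, both salt transcripts and the Irk1 transcripts FBtr0336477 and FBtr0336478 were lower and not called. Oatp58Dc was higher and not called. Within that list Oatp58Db rose from 3.67 and 5.02 TPM to 24.1 and 22.9 TPM, ZnT35C rose 2.32-fold, and an Irk1 transcript (FBtr0336474) fell. Of 11 fat body markers 1 was listed, Tsf1, which rose from 9.24 and 10.1 TPM to 29.8 and 38.2 TPM. Of 9 haemocyte markers 2 were listed, and 1 of them rose: an srp transcript (FBtr0335424), at 1.03 and 0.925 TPM in the mutant and listed at 0 and 4.73e-10 TPM in w1118 (limma annotation-wide adjusted p = 0.039). The other, Hml, was lower and not called, and their summed abundance was at most 1.32 TPM in any library. Of 6 enterocyte markers 4 were listed, 1 higher and 3 lower, and 1 fell (Jon65Aiii). Their summed abundance was 25608 and 22267 TPM in the mutant and 54207 and 56189 TPM in w1118, nearly all of it from Jon65Aiii and Jon99Cii. For enteroendocrine cells 7 transcripts of 4 genes were listed, all lower and none called by limma annotation-wide. For progenitors 1 transcript and for visceral muscle 2 were listed, none called, and no ovary marker was listed. Beside these marker counts, 22.0% of the whole list rose and 8.69% fell. In the whole list 58.8% had both mutant values above both w1118 values, and 35.9% had both below. The srp call held without w1118 replicate 1 or 2 (limma annotation-wide adjusted p = 0.048 and 0.012), but not without a mean-dependent prior variance (0.26) or with a replicate block (0.44). The other 5 marker calls named were lost when w1118 replicate 1 was left out (limma annotation-wide adjusted p = 0.11 for Oatp58Db, 0.48 for ZnT35C, 1 for Irk1, 0.15 for Tsf1 and 1 for Jon65Aiii), and without w1118 replicate 2 all but that of Oatp58Db were lost (0.11, 0.14, 0.085 and 1 for the other four in that order). Without a mean-dependent prior variance ZnT35C, Irk1 and Jon65Aiii were at 0.12, 0.058 and 0.084, ZnT35C was at 0.062 with the scaled TPM, and Irk1 at 0.17 with a replicate block. The part of cell composition in the Delta class result was not tested.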

How the data were processed

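RNA was sequenced from 2 kdm5 mutant and 2 w1118 intestine samples. The authors deposited 1 table of transcripts with TPM per library and a p-value per transcript, per the file headers; whether the p-value is adjusted is not stated. Cufflinks and DESeq are named without role or version, per the submitters' processing notes; the aligner, genome build, annotation and use of strand were not given in the sources used here. Identifiers were matched to Ensembl release 115 (BDGP6.54), and 1741 of 1761 matched. That annotation may not be the authors' own.

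limma 3.58.1 (limma-trend, R 4.3.3) was fitted to log2(TPM + 1) of all 1761 listed transcripts, mutant against w1118, with neither filter nor replicate block. The pseudocount makes log2 changes of low transcripts too small. A fold without the word log2 is a ratio of group mean TPM. The fit was also run on simulated data with equal spread for all transcripts, no selection on p and adjustment over the list alone. That run does not show how often the annotation-wide calls are false. Alternatives were a pseudocount of 0.1, a minimum mean of 1 TPM, no mean-dependent prior variance, scaling to TPM outside the list, adjustment over the list, a replicate block and leaving out each library.

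Members, gene lists and tests were chosen with earlier results of these data known. Named transcripts were all members, Kdm5, up to 3 called transcripts per list with the smallest p (otherwise the one with the smallest p), the 5 nearest profiles averaging 5 TPM or more, and listed neighbours within 10 kb. Marker transcripts with values, Gss1, Gss2, Gclc, FBtr0345798, the GstE10 transcript and the lists' counts were described after their values were seen. Sequences are not shown.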

Additional observations from a re-analysis of the deposited data

How the results depend on the processing

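None of the 6 Delta class transcripts overlapped between the genotypes, so most alternatives could not reverse the direction. All 6 were higher in the mutant under every alternative run. Their median log2 change stayed between 2.55 and 2.96, and the ratio of summed TPM between 3.92 and 5.1 (4.07 with scaling to TPM outside the list, which moved the mutant by -0.15 on the log2 scale against w1118). Calls depended on having both mutant libraries. With 1 library left out, 0 to 5 of the 6 were called annotation-wide: 0 without either mutant replicate, where all 6 kept an unadjusted limma p below 0.05, and 5 without either w1118 replicate. In the same fits 0 to 366 listed transcripts and 0 to 11 transcripts of the related gene lists were called, against 540 and 19 with all libraries; leaving out w1118 replicate 1 gave 282 and 10. A group left with 1 library is assumed to vary like the other. GstD1-RB lost its call in 7 of 10 alternatives, and the other 5 members in 2 of 10, those without a mutant replicate. Adjustment over the listed transcripts called 1358. The labels' replicate numbers are not said to pair samples: a replicate block called 5 of 6 members (GstD1-RB lost) and 449 listed transcripts, and same-numbered libraries deviated with r = -0.19 across transcripts. The crossed pairing, chosen after seeing the data, called 6 members and 1167 listed transcripts. The depth of each library is unknown, and 2 libraries per group limit the precision.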
